A study of Mus musculus with 35 samples.

Results

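Imprinted genes that lie outside mouse chromosome 6 were followed in neuroectoderm made from mouse embryonic stem cells (ESCs) that carried intact, catalytically inactive or deleted Tet3. The 42 genes were taken by symbol from a list of known mouse imprinted genes, and each of them was present in all 3 RNA-seq tables, which held 17948 genes for the day 3 experiment, 18091 genes for the Dnmt1 experiment and 17705 genes for the Tet3-CD experiment. All 42 passed the filter on low values (a mean of at least 10 normalized counts). By general knowledge 20 of them are expressed from the paternal allele, 20 from the maternal allele and 2, Grb10 and Gnas, from either parent depending on tissue or promoter. They fall into 18 imprinted clusters, and for 14 of the 42 the imprint is known from some tissues alone.

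In an imprinted gene the copy from one parent is silent, and the choice is kept by DNA methylation that was laid down in the egg or sperm at an imprinting control region. Maintenance of that mark after replication depends on DNMT1 and on the zinc finger protein ZFP57 with its partner TRIM28, while TET enzymes oxidise methylated cytosine. Many imprinted genes set fetal growth, and cultured ESCs are known to gain or lose imprints from clone to clone. The RNA-seq tables hold 1 value per gene and sample, so transcripts of the maternal and paternal copies were not separated, and a level could not be assigned to either allele.

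All cells were V6.5, a male ESC line of mixed 129 and C57BL/6 background that is grown on feeder cells. By the study's methods the cells were pre-plated, a step that removes feeder cells, and moved to gelatin. They were then differentiated by withdrawal of LIF with 1 µM retinoic acid. On day 3 there were 3 samples of Tet3+/+, 3 of Tet3m/m (point mutations in the iron-binding site encoded by exon 9, from CRISPR editing) and 2 of Tet3-/- (deletion of exon 4), and each sample was a separate clone. In the Dnmt1 experiment each genotype received an empty vector or myc-tagged Dnmt1 with 2 samples per group, and blasticidin was applied before collection. In the Tet3-CD experiment each genotype received an empty vector or Tet3-CD, an HA-tagged piece of TET3 that holds its catalytic part, with 1 sample per group. The labels give the same collection time for all samples, whereas the study's methods place the Tet3-CD collection after day 3, so these libraries may be of a later stage than the day 3 ones. The clones used in the latter experiments were not stated, nor whether the 2 samples of a group were separate clones, so p-values of the Dnmt1 experiment may measure only technical spread.

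Total reads per sample ran from 31155842 to 50845950 over all 26 libraries, and values are given as normalized counts, the read count of a gene divided by the size factor of its library. Tet3 itself lay at 4576 to 5020 in Tet3+/+ on day 3, at 1945 to 2666 in Tet3m/m and at 1796 to 2329 in Tet3-/-. In the Dnmt1 experiment the Tet3-/- samples with empty vector had 2520 and 2571 against 2957 and 3075 in Tet3+/+, and the reason for this smaller gap was not tested. At most 1 of 12 neuroectoderm and neural progenitor markers was at 0 in any library, and their sum on day 3 was 19194 to 26411 in Tet3+/+, 15097 to 19910 in Tet3m/m and 25190 to 29094 in Tet3-/-. Markers of other cell types moved with genotype: in the Dnmt1 experiment with empty vector, summed pluripotency markers lay at 35910 to 35964 in Tet3+/+, at 90740 to 92439 in Tet3m/m and at 4852 to 5276 in Tet3-/-, and fibroblast markers, as feeder cells express, lay at 24043 to 25327, 14090 to 14826 and 44349 to 44898. In the same order endoderm markers lay at 222684 to 231051, 510527 to 564251 and 100659 to 103748, mesoderm markers at 5235 to 5472, 12120 to 12503 and 1634 to 1836, and trophoblast markers at 7552 to 7971, 4125 to 4158 and 11603 to 11876. Because these were bulk samples, fewer cells of a type and less RNA per cell could not be told apart, and the part of cell makeup in the differences given here was not tested.

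**Figure D1:**
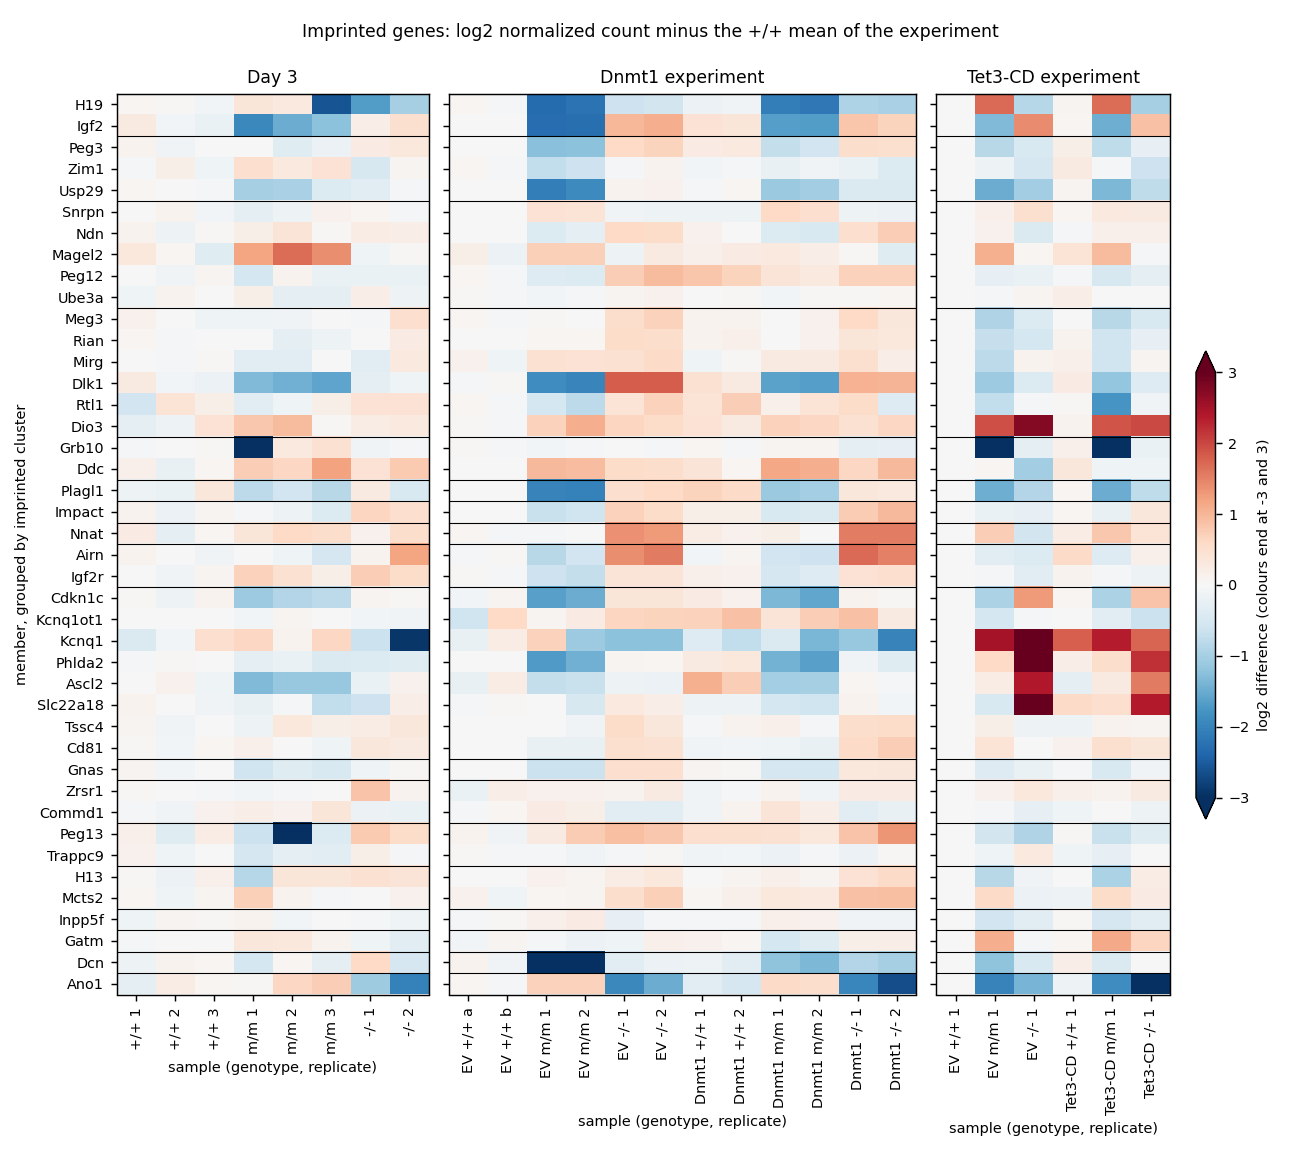
Level of the 42 imprinted genes in every library of the 3 experiments, as log2 difference from the Tet3+/+ mean of the same experiment (colour scale, rows grouped by cluster). Single dark cells mark a gene that left its group in 1 clone, such as Grb10 in replicate 1 of day 3 Tet3m/m, which lay at 1596 against 38870 to 57931 in the other 7 samples.

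Some members stood apart in a single clone. A gene was counted as apart when 1 sample lay beyond all 7 others of day 3 by more than 1.5-fold, a rule set after the values were seen. No Tet3+/+ clone had such a member, against a share of all genes tested of 1.24%, 1.83% and 2.17% in replicates 1, 2 and 3. In Tet3m/m the members were Grb10 and H13 in replicate 1, where 3.14% of all genes stood apart, Peg13 in replicate 2 (1.14% of all genes) and H19 in replicate 3 (3.45% of all genes). In Tet3-/- they were Zrsr1 in replicate 1 (3.72% of all genes) and Airn, Kcnq1 and Ano1 in replicate 2 (3.2% of all genes). The share of the 42 was above that of all genes in replicates 1 and 2 of Tet3m/m (4.76% and 2.38%) and replicate 2 of Tet3-/- (7.14%), and below it in replicate 3 of Tet3m/m, replicate 1 of Tet3-/- (2.38% each) and all 3 Tet3+/+ clones. The 8 departures together are thus close in number to the background and are described locus by locus, not as a property of these genes. The gap to the next sample was 24.3-fold for Grb10 and 38.4-fold for Peg13, and 1.60-fold to 4.84-fold for the other 6 genes.

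Grb10 encodes an adaptor that restrains insulin and growth factor receptors, and its promoter use differs between the maternal copy and the paternal copy of neurons. Its level was 40907, 42124 and 42892 in Tet3+/+, 1596, 51685 and 57931 in Tet3m/m, and 38870 and 40649 in Tet3-/-. Replicate 1 of Tet3m/m was therefore 24.3-fold below the lowest other sample, while the other mutant clones lay above every Tet3+/+ clone. The 20 nearest tested genes that are not imprinted had a median log2 difference of 0.07 in that clone. In the Tet3-CD experiment, whose table was normalized separately, Grb10 was also low in Tet3m/m, at 1049 with empty vector and 1032 with Tet3-CD, whereas the Tet3+/+ and Tet3-/- samples lay between 22770 and 30960. The Tet3m/m samples of the Dnmt1 experiment had 38462 and 39185 with empty vector, close to the 41585 and 39938 of their own controls (-0.07 ± 0.04 on the log2 scale, not called). The group comparison on day 3 gave a log2 fold change of -1.32 ± 1.05 (SE) with an adjusted p of 0.45 (limma), and 1 clone of the 3 was low.

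H13 and Mcts2 share a locus on chromosome 2, where Mcts2, a paternally expressed retrogene of a translation factor, lies inside H13, which encodes signal peptide peptidase. Day 3 H13 lay at 4159, 3631 and 4511 in Tet3+/+, at 2274, 5270 and 5212 in Tet3m/m, and at 5613 and 5325 in Tet3-/-. In the same order Mcts2 had 495, 431 and 499, then 775, 507 and 460, then 474 and 519. The clone with the low Grb10 thus had the lowest H13 and the highest Mcts2 of the 8 samples, and its log2 ratio of Mcts2 to H13 was 1.55 above the Tet3+/+ mean where the other samples lay between -0.46 and 0.04. The Tet3m/m library of the Tet3-CD experiment with empty vector differed from Tet3+/+ in the same directions, with H13 at 1973 against 3497 in Tet3+/+, Mcts2 at 539 against 361 and a log2 ratio of 1.40. Reads from a retrogene inside an intron can be shared with its host, and the counting of such overlaps is one limit on this pair.

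In both data sets the Tet3m/m library with low Grb10 also had little Y-chromosome RNA. The median log2 difference from Tet3+/+ over 7 Y-linked genes was -5.49 in day 3 replicate 1 against -0.84 and -0.88 in the other mutant clones, and over 4 genes it was -6.00 and -7.07 in the mutant libraries of the Tet3-CD experiment. Over 15733 genes, imprinted ones left out, the deviation of the Tet3-CD experiment's Tet3m/m sample correlated with that of day 3 mutant replicate 1 at r = 0.16 and with replicates 2 and 3 at -0.02 and -0.16, which is given as a description without a test. For the mutant samples of the Dnmt1 experiment the values were -0.14, -0.18 and 0.30. For its Tet3-/- samples they were -0.20 with replicate 1 and 0.20 with replicate 2. With 2 clones the deviations mirror each other, so these are 1 value with opposite signs. With 3 clones the deviations from their mean also constrain each other, so the Tet3m/m values are not independent of one another. The labels do not say which clone was used.

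Promoter sequences are shown for Grb10 and H13, which stood apart in replicate 1 of day 3 Tet3m/m. Mcts2, which lies inside H13 and did not meet that rule, is shown with them. They are RefSeq windows of 250 bases before the annotated start on build GRCm38.p6, read 5′ to 3′ on the strand of the gene: H13 at chr2:152669211-152669460 (plus strand), Mcts2 at chr2:152686898-152687147 (plus strand), and 2 starts of Grb10 at chr11:12037421-12037670 and chr11:12027972-12028221 (minus strand). Capitals mark TGCCGC, the hexamer that ZFP57 binds when it is methylated, which was searched on both strands (as GCGGCA on the other).
H13: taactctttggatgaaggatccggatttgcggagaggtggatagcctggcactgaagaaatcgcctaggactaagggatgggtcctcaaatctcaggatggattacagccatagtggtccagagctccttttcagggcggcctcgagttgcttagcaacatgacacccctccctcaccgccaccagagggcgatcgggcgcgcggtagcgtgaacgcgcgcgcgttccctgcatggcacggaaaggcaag
Mcts2: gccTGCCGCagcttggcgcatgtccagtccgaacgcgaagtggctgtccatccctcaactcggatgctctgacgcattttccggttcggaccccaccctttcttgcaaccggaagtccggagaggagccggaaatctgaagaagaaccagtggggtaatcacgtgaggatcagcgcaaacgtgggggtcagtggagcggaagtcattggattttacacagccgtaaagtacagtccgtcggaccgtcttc
Grb10 upstream window: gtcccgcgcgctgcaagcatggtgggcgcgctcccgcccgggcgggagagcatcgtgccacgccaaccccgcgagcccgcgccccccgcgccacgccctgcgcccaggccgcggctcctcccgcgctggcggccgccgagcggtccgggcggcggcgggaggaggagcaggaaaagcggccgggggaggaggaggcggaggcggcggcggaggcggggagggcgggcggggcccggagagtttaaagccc
Grb10 downstream window: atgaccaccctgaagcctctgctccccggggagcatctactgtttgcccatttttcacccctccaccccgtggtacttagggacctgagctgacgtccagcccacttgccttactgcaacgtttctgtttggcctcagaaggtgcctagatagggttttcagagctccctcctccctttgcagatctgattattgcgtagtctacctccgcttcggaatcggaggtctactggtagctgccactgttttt
The upstream Grb10 window held 40 CpG and the downstream one 8, H13 held 18 and Mcts2 20, against a median of 6 over all 32851 promoter windows. A RefSeq window was found for 34 of the 42 genes, in 47 windows with a median of 11 CpG, and the hexamer occurred in 4 of these (8.51%), of Mcts2, Zim1, Plagl1 and Meg3, which is close to the 8.68% of all windows. These matches describe letters in the windows and no binding.

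Peg13, a paternally expressed non-coding RNA in an intron of Trappc9, was nearly absent in another mutant clone. It lay at 289, 202 and 302 in Tet3+/+, at 167, 3.37 and 196 in Tet3m/m, and at 448 and 381 in Tet3-/-. Replicate 2 of Tet3m/m was 38.4-fold below the next sample, while its Trappc9 level of 1412 was close to the 1217 and 1379 of the other mutant clones, all below the 1578 to 1874 of Tet3+/+. With empty vector in the Dnmt1 experiment Peg13 had 155 and 216 in Tet3m/m against 138 and 118 in Tet3+/+, and in the Tet3-CD experiment it had 148 against 216. The day 3 comparison of Tet3m/m with Tet3+/+ gave -2.32 ± 1.12 on the log2 scale, adjusted p = 0.203 in limma, and leaving out replicate 2 of Tet3m/m turned Tet3-/- against Tet3m/m into a call of 1.19 ± 0.26 with an adjusted p of 0.0265.

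H19, the maternally expressed long non-coding RNA beside Igf2, split the mutant clones. Its level was 63604, 62229 and 57756 in Tet3+/+, 78052, 75251 and 10191 in Tet3m/m, and 19088 and 30555 in Tet3-/-. Both Tet3-/- clones were below every Tet3+/+ clone, with a log2 fold change of -1.34 ± 0.69 that was not called in the fit of all groups (limma, adjusted p = 0.3) and was called, with the same size and an SE of 0.17 (adjusted p = 0.0188), without replicate 3 of Tet3m/m. The Dnmt1 experiment held the low mutant value (7523 and 7947 against 38435 and 35738 in Tet3+/+, both with empty vector), while the Tet3-CD experiment held a high one, at 98391 against 30468. H19 in Tet3m/m thus pointed in opposite directions in these 2 experiments, as it did among the day 3 clones.

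The departures in Tet3-/- clones were in Zrsr1, Airn, Kcnq1 and Ano1. Zrsr1, a retrogene of a splicing factor that lies in Commd1, had 1467 in replicate 1 against 868 in replicate 2 and 756 to 831 in the other 6 samples. Airn, the long non-coding RNA transcribed antisense to the IGF2 receptor gene Igf2r, had 341 in replicate 1 and 717 in replicate 2 against 223 to 336 elsewhere. Ano1, a calcium-activated chloride channel gene, had 224 and 114 against 387 to 547 in Tet3+/+ and 480 to 777 in Tet3m/m, so both knockout clones were low and replicate 2 was lowest. Kcnq1 had 14.9 and 2.28 against 17.4 to 33.6 in Tet3+/+, which is too few reads for a firm statement. Strand was not stated for the counting, so reads of Airn and Igf2r, and of Kcnq1ot1 and Kcnq1, cannot be told apart where they overlap.

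**Figure D2:**
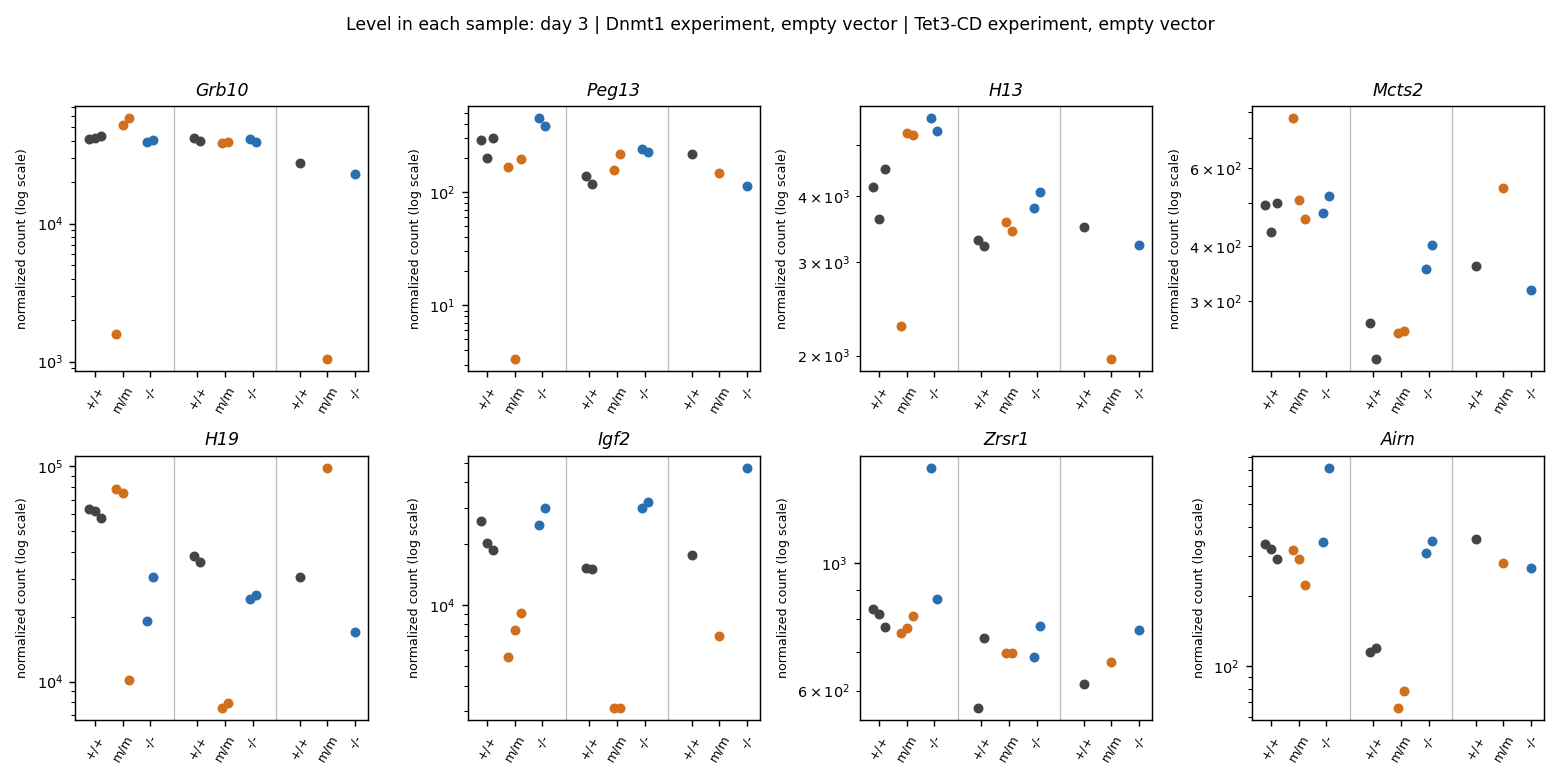
Normalized counts (log axis) of the imprinted genes that stood apart in a single clone of day 3 (Kcnq1 and Ano1 not shown), with 1 point per sample of the 3 experiments arranged by genotype (dark Tet3+/+, orange Tet3m/m, blue Tet3-/-, empty-vector samples only in the later experiments), with Mcts2 and Igf2 added as the neighbours of H13 and H19. Grb10 drops to 1596 in 1 of 3 day 3 mutant clones and to about the same level in the Tet3-CD experiment, Peg13 drops to 3.37 in another clone, and H19 to 10191 in the third.

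The second question was which of the 42 genes differed by genotype on day 3. A gene was called at an adjusted p under 0.05 with a fold change above 1.5, in limma on log2(value + 1) of all genes with Benjamini-Hochberg adjustment, so folds are on that scale. Between Tet3m/m and Tet3+/+ 8 of the 42 were called against 10.2% of all genes, with 2 higher (5.06% of all genes) and 6 lower (5.19% of all genes). The median log2 fold change over the 42 was -0.12, and it was 0.00 over all genes tested. The lower genes were Igf2, Dlk1, Ascl2, Cdkn1c, Usp29 and Plagl1, and the higher ones Magel2 and Ddc.

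Igf2, the insulin-like growth factor of the fetus, had 25790, 20056 and 18513 in Tet3+/+, 5516, 7508 and 9083 in Tet3m/m, and 24560 and 29841 in Tet3-/-. No mutant clone reached the lowest wild-type or knockout clone, and the fall was -1.56 ± 0.18 in log2 fold change with an adjusted p of 0.000429 in limma. H19 was high in 2 of these mutant clones and low in the third, and the log2 ratio of Igf2 to H19 relative to the Tet3+/+ mean was -2.30, -1.80 and 1.36 in them. In Tet3-/- this ratio was 1.89 and 1.49, above all Tet3+/+ clones, which lay between -0.12 and 0.22. Igf2 was lower in every mutant clone whether H19 was high or low.

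Dlk1, the Notch family protein at the start of the Dlk1-Dio3 cluster on chromosome 12, fell to a like extent. Its levels were 17508, 13760 and 12977 in Tet3+/+, then 5836, 5354 and 4879 in Tet3m/m, and 11919 and 13390 in Tet3-/-. The groups Tet3m/m and Tet3+/+ did not overlap, with a log2 fold change of -1.45 ± 0.12 and an adjusted p of 9.68e-05 in limma. The maternally expressed non-coding RNAs of the cluster did not pass the test: Meg3 lay between 21404 and 25514 in Tet3+/+ and between 21406 and 23290 in Tet3m/m. Accordingly the log2 ratio of Dlk1 to Meg3 lay between -1.57 and -1.19 in the mutant clones, relative to the Tet3+/+ mean.

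Cdkn1c, which encodes p57 and is expressed from the maternal copy of the Kcnq1 cluster, had 10847, 9621 and 11474 in Tet3+/+ and 4952, 5788 and 6140 in Tet3m/m. The groups were separate (log2 fold change -0.92 ± 0.10, adjusted p = 0.000388 in limma), and Tet3-/- with 11304 and 10859 lay within the wild-type range. Ascl2, a trophoblast transcription factor gene of the same cluster, had 101 to 120 in Tet3+/+ and 43.0 to 48.9 in Tet3m/m, a log2 fold change of -1.21 ± 0.25. Trophoblast markers moved the same way, at a sum of 8198 to 9177 in Tet3+/+ and 3396 to 6680 in Tet3m/m, and their part in this result was not tested. Kcnq1ot1, the paternally expressed antisense RNA known for silencing the cluster, lay at 179 to 182 in Tet3+/+ and 172 to 192 in Tet3m/m, so the log2 ratio of Kcnq1ot1 to Cdkn1c was 0.79 to 1.03 above the Tet3+/+ mean.

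The other calls were in paternally expressed genes. Plagl1, a zinc finger factor known as a regulator of other imprinted genes, had 11933 to 17232 in Tet3+/+ and 7694 to 9168 in Tet3m/m, with no overlap and a log2 fold change of -0.73 ± 0.19. It lost its call without replicate 1 or 3 of Tet3+/+ and without replicate 1 or 3 of Tet3m/m. Usp29, a deubiquitinase gene that shares its control region with Peg3, had 1417 to 1539 in Tet3+/+ and 736 to 1102 in Tet3m/m, a log2 fold change of -0.79 ± 0.16. Magel2, a MAGE gene of the Snrpn-Ube3a cluster, rose in each mutant clone, from 231, 192 and 144 in Tet3+/+ to 426, 594 and 491, a log2 fold change of 1.42 ± 0.21 with an adjusted p of 0.00188 in limma. The other genes of that cluster had log2 fold changes of -0.10 for Snrpn, 0.20 for Ndn, -0.21 for Peg12 and -0.14 for Ube3a, and none of them was called. Ddc, which makes dopamine and serotonin, had 601 to 784 and 1088 to 1623, a rise of 0.86 ± 0.17.

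By parental allele, 6 of the 20 paternally expressed genes were called in Tet3m/m against 10.2% of all genes (2 higher and 4 lower, median log2 fold change -0.10) and 2 of the 20 maternally expressed ones (both lower, median -0.11). Of the 28 genes imprinted in most tissues 6 were called, and 2 of the 14 imprinted in some tissues. No difference between these classes was tested.

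Few genes were called between Tet3-/- and Tet3+/+ on day 3. The 1 call among the 42 (2.38%, against 0.642% of all genes) was Ano1, at -1.55 ± 0.30 in log2 fold change with an adjusted p of 0.05 as rounded (limma), and it was lost in 11 of 18 alternatives. The median over the 42 genes was 0.04 and that over all genes -0.01. Igf2r, the receptor that clears IGF2, had 30865 and 26915 in Tet3-/- and 17038 to 19581 in Tet3+/+, a difference of 0.65 ± 0.15 with an adjusted p of 0.0603. Impact, an inhibitor of the amino acid response kinase GCN2, had 8206 and 7390 against 4590 to 5579, a difference of 0.58 ± 0.13 with an adjusted p of 0.0623 in the same limma fit, so neither was called. Summed fibroblast markers were 52532 to 56291 in Tet3-/- and 22693 to 35187 in Tet3+/+ on day 3, and their part in these values was not tested.

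Against Tet3m/m, Tet3-/- had 9 calls (21.4% of the 42, against 9.73% of all genes), with 6 higher (5.41% of all genes) and 3 lower (4.33% of all genes). The higher ones were Igf2 (1.91 ± 0.20), Dlk1 (1.24 ± 0.14), Ascl2 (1.18 ± 0.28), Cdkn1c (0.98 ± 0.12), Impact (0.78 ± 0.13) and Usp29 (0.60 ± 0.18). The lower ones were Ano1 (-2.01 ± 0.30), Magel2 (-1.46 ± 0.24) and Zim1 (-0.62 ± 0.16), a maternally expressed zinc finger gene of the Peg3 cluster. The comparison shares its Tet3m/m samples with the first one, so 6 of these genes are seen from the other side. With only the groups compared 6 of the 9 calls held. Usp29 lost its call in 11 of 18 alternatives (edgeR and DESeq2 among them), Zim1 in 7, and Ascl2 in 4 (the replicate block, only the groups compared, and without replicate 2 of Tet3m/m or of Tet3-/-), while under the replicate block Peg13 gained a call (3.51 ± 0.97, adjusted p = 0.0478).

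**Figure D3:**
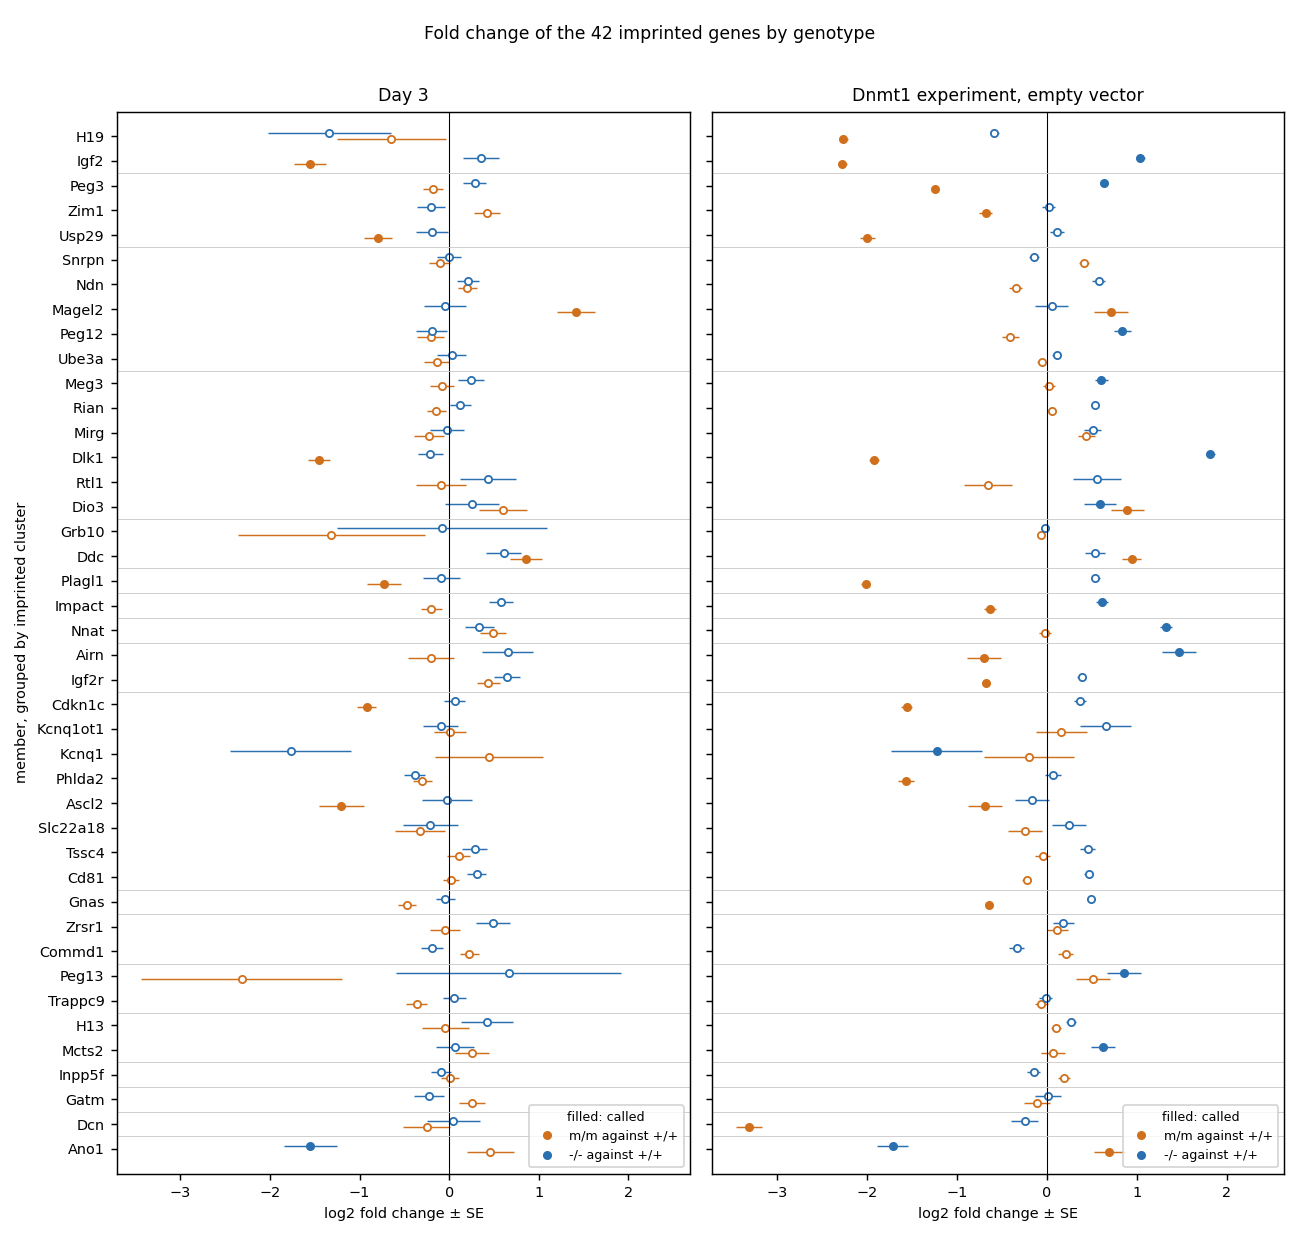
Log2 fold change ± SE of each of the 42 genes in Tet3m/m (orange) and Tet3-/- (blue) against Tet3+/+, on day 3 (left, n = 3, 3 and 2) and with empty vector in the Dnmt1 experiment (right, n = 2 per group). Filled points passed the test: 8 and 1 on the left, 19 and 13 on the right, and the long error bars of Grb10, Peg13 and H19 on the left come from groups with 1 clone apart.

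The genotype comparison could be repeated in the empty-vector samples of the Dnmt1 experiment, which had controls of their own. There 19 of the 42 genes (45.2%) were called between Tet3m/m and Tet3+/+ against 21.2% of all genes, with 4 higher (10.3% of all genes) and 15 lower (10.9% of all genes), and the median log2 fold change was -0.15 over the 42 and 0.01 over all genes. Every one of the 8 genes called on day 3 was called again in the same direction, 8 of the 8 day 3 calls and 42.1% of the 19. Over all genes, 921 of the 1796 day 3 calls tested in both experiments (51.3%) were called in the same direction and 56 in the opposite one. In the Tet3-CD experiment, with 1 library per genotype and no test, 6 of the 8 (Igf2, Usp29, Magel2, Dlk1, Plagl1 and Cdkn1c) passed 1.5-fold in the day 3 direction and none in the other, while 1195 of 1778 genes called on day 3 (67.2%) did so in all. This comparison was chosen after the values were seen, the mutant clones may be shared between experiments, and the Tet3-CD libraries may be of a later stage.

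The fall was deepest in the Igf2-H19 cluster and in Dcn. Igf2 had 15086 and 14913 with empty vector in Tet3+/+ and 3099 and 3110 in Tet3m/m, a log2 fold change of -2.27 ± 0.05 with an adjusted p of 7.52e-19 in limma. H19 fell by nearly the same amount (-2.26 ± 0.05), so the log2 ratio of Igf2 to H19 stayed within 0.05 of the Tet3+/+ mean, at 0.03 and -0.05. Dcn, which encodes the fibroblast matrix proteoglycan decorin, had 506 and 442 in Tet3+/+ and 46.6 and 46.9 in Tet3m/m (-3.31 ± 0.15). The summed fibroblast markers, without Dcn, were 24043 to 25327 and 14090 to 14826 in these groups, as given earlier, and the part of these cells in the Dcn value was not tested.

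Several clusters held more than 1 lower gene in these mutant samples. In the Peg3 cluster Peg3, a zinc finger factor gene, had 54668 and 53071 against 22493 and 23016 (-1.24 ± 0.05), Usp29 had 1319 and 1300 against 311 and 345 (-2.00 ± 0.08), and Zim1 had -0.68 ± 0.07, so all 3 members were called. In the Kcnq1 cluster 3 of 8 were lower, namely Cdkn1c (-1.56 ± 0.06), Phlda2, a maternally expressed gene that limits placental growth (-1.57 ± 0.09), and Ascl2 (-0.69 ± 0.19). Igf2r (-0.67 ± 0.05) and Airn (-0.70 ± 0.19) were lower together. Plagl1 (-2.02 ± 0.05), Dlk1 (-1.92 ± 0.06), Gnas, the stimulatory G protein gene (-0.65 ± 0.04), and Impact (-0.63 ± 0.06) were lower too. Igf2r and Zim1 had not fallen on day 3, where every mutant clone lay above every Tet3+/+ clone, without a call (20620 to 29666 against 17038 to 19581 for Igf2r, and 3260 to 3791 against 2422 to 2975 for Zim1).

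The 4 higher genes were Ddc (0.94 ± 0.11), Dio3, which inactivates thyroid hormone (0.90 ± 0.18), Magel2 (0.71 ± 0.19) and Ano1 (0.69 ± 0.17). Magel2 with 285 and 281 lay above 194 and 153 in Tet3+/+ and lost its call, as Ascl2 did, without 1 of the Tet3+/+ samples (column b of the table), and Airn lost its call without replicate 1 of Tet3m/m. In Tet3m/m of the Tet3-CD experiment with empty vector (1 library per genotype, no test) some of the called genes went the other way. Ano1 was past 1.5-fold lower than in Tet3+/+ there, and Phlda2 and H19 were past it higher. Dio3 and Magel2 were past it higher and Igf2, Peg3, Usp29, Dlk1, Plagl1, Cdkn1c and Dcn past it lower, as in the Dnmt1 experiment. The other called genes were not past it. By allele, 10 of 20 paternally expressed genes were called in the Dnmt1 experiment (3 higher, 7 lower). Of the 20 maternally expressed ones 8 were called (1 higher, 7 lower). Of all genes tested 21.2% were called in this comparison, 10.3% higher and 10.9% lower.

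In Tet3-/- of the same experiment most calls were higher, not lower. Some members moved the same way in both genotypes, such as Dio3 (called higher in both) and H19 (lower in both, called in Tet3m/m alone). Of the 42 genes 13 (31.0%) were called against 24.9% of all genes, with 11 higher (11.0% of all genes) and 2 lower (13.9% of all genes), and the median log2 fold change was 0.42 over the 42 against 0.00 over all genes. All 10 calls among the 20 paternally expressed genes were higher (median 0.60). The 3 calls among the 20 maternally expressed genes were 1 higher and 2 lower (median 0.09). No difference between these classes was tested. The Tet3-CD experiment with empty vector had 1 library per genotype and no test. There, past 1.5-fold in Tet3-/-, paternally expressed Igf2 and Dio3 were higher and Usp29, Ddc, Plagl1 and Peg13 lower. Of maternally expressed genes, Cdkn1c, Kcnq1, Phlda2, Ascl2 and Slc22a18 were higher and H19 and Ano1 lower.

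Dlk1 rose most, from 6371 and 6635 in Tet3+/+ to 22849 and 23034 in Tet3-/-, a log2 fold change of 1.82 ± 0.06 with an adjusted p of 2.18e-16 in limma. Airn rose from 115 and 119 to 307 and 346 (1.47 ± 0.19) while Igf2r, with 0.39 ± 0.05, passed the p-value but not the fold threshold, and the log2 ratio of Airn to Igf2r was 1.00 and 1.17. Nnat, which encodes the membrane proteolipid neuronatin, rose from 1674 and 1569 to 4162 and 3941 (1.32 ± 0.07). Igf2 rose from 15086 and 14913 to 29810 and 31948 (1.04 ± 0.05), and H19 had 24122 and 25344 against 38435 and 35738 (-0.58, fold under 1.5), which placed the ratio of Igf2 to H19 at 1.61 and 1.64 on the log2 scale. Each of these genes had separate groups of 2 samples. The share of all genes with separate groups is not given for any comparison here, so no result is drawn from separation alone.

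The other paternally expressed genes that rose were Peg13 (0.86 ± 0.19), Peg12, a GSK3-binding protein gene (0.84 ± 0.10), Peg3 (0.64 ± 0.05), Mcts2 (0.62 ± 0.13), Impact (0.61 ± 0.06) and Dio3 (0.59 ± 0.18). Meg3 was the maternally expressed gene that rose (0.61 ± 0.07). Ano1 fell from 614 and 572 to 154 and 209 (-1.72 ± 0.17), the same direction as on day 3, and Kcnq1 fell from 43.5 and 59.1 to 21.1 and 21.2 (-1.22 ± 0.50), on few reads and with the call lost in 7 of 20 alternatives. Calls were also lost without Tet3+/+ column b (Mcts2, Meg3 and Dio3), without replicate 2 of Tet3-/- (Mcts2 and Meg3) and without replicate 1 of Tet3-/- (Dio3 and Impact). On day 3 Dlk1 in Tet3-/- had not been called, at -0.21 ± 0.14. The rise was not general in the Tet3-CD experiment with empty vector (1 library per genotype, no test). There the median log2 ratio in Tet3-/- was -0.20 over the 42 and -0.003 over all genes. Of the genes that rose above, Igf2 and Dio3 were past 1.5-fold higher there, and Peg13 was past it lower (114 against 216). Dlk1, Airn, Nnat, Peg12, Peg3, Mcts2, Impact and Meg3 were lower by less. Fibroblast and pluripotency markers moved with genotype in the Dnmt1 experiment, as given earlier, and their part was not tested.

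Compared with each other, Tet3-/- and Tet3m/m of this experiment differed in 21 of the 42 genes (against 39.6% of all genes), of which 19 were higher in Tet3-/- (18.9% of all genes) and 2 lower (20.6% of all genes). The median over the 42 was 0.54 and that over all genes -0.01. The genes highest in Tet3-/- relative to Tet3m/m were Dlk1 (3.74 ± 0.06), Igf2 (3.31 ± 0.05), Dcn (3.06 ± 0.15), Plagl1 (2.56 ± 0.05), Airn (2.17 ± 0.19) and Usp29 (2.11 ± 0.08). Magel2 (-0.66 ± 0.19) and Ano1 (-2.41 ± 0.17) were the lower ones, and Magel2 lost its call without replicate 1 of empty-vector Tet3-/-. The tested genes nearest to each member (20, or 17 for Ano1, imprinted genes left out) had medians between -0.48 and 0.46 in the other genotype comparisons. In this one they reached 1.34 around H19, 1.02 around Igf2 and 0.64 to 0.82 around the Kcnq1 cluster, all on distal chromosome 7, so the neighbourhood was higher there too. Per-sample medians of the chromosomes that carry members lay between -0.07 and 0.11.

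**Figure D4:**
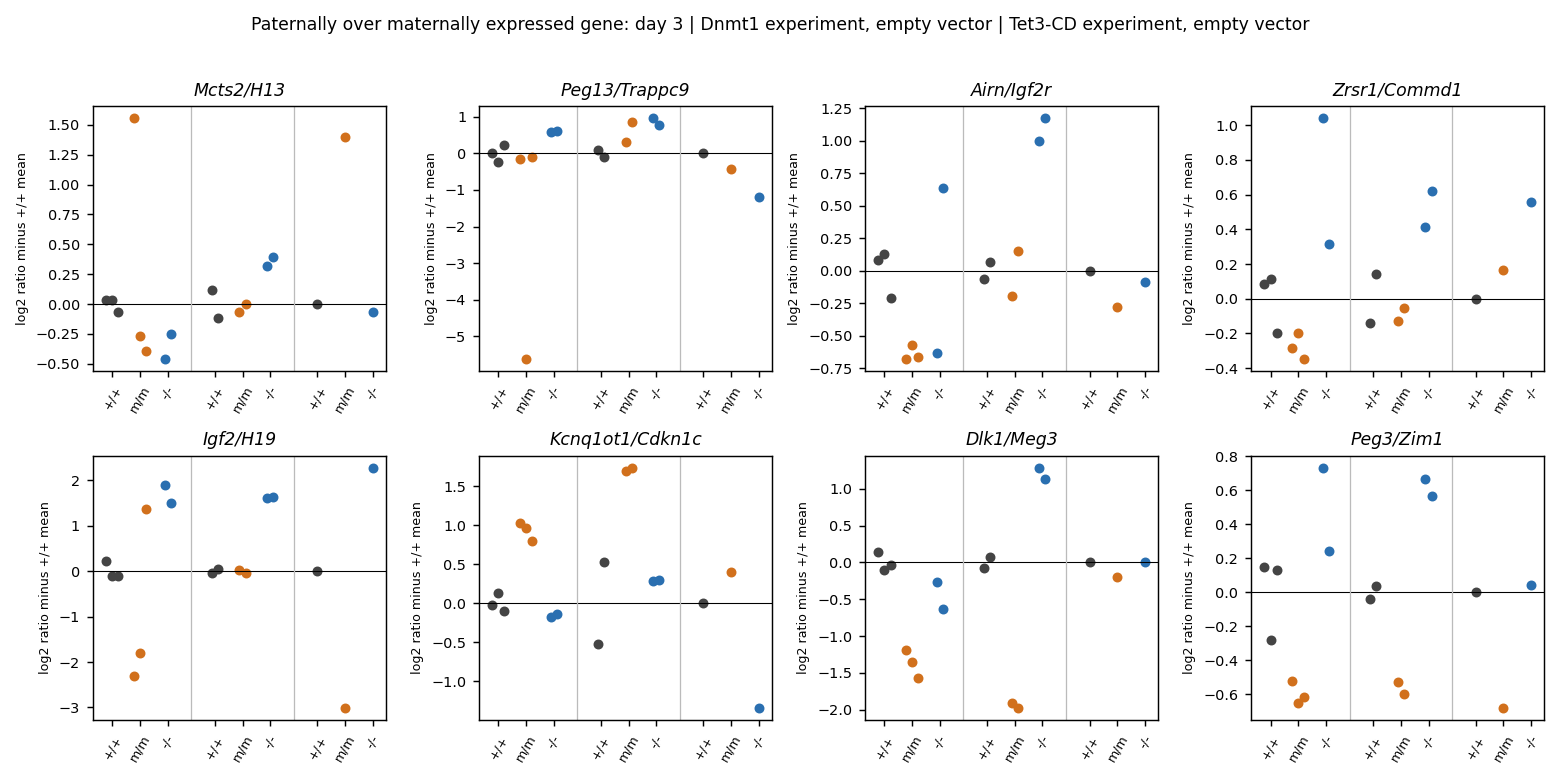
Log2 ratio of a paternally to a maternally expressed gene of the same cluster, minus the Tet3+/+ mean of the experiment, with 1 point per sample (dark Tet3+/+, orange Tet3m/m, blue Tet3-/-) on day 3 and with empty vector in the other experiments. Mcts2/H13 is at 1.55 in 1 mutant clone, Igf2/H19 spreads from -2.30 to 1.36 among the mutant clones, and Dlk1/Meg3 lies between -1.57 and -1.19 in the day 3 mutant clones.

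The third question was whether more Dnmt1 changed imprinted expression. Dnmt1 RNA rose from 14679 and 15225 to 22799 and 23768 in Tet3+/+, from 11934 and 11285 to 20245 and 23211 in Tet3m/m and from 17356 and 17554 to 33380 and 39854 in Tet3-/-, and counts do not separate the vector from the endogenous gene. In Tet3+/+ 3 of the 42 (7.14%) were called against 1.17% of all genes, all higher (0.421% of all genes). In Tet3m/m 7 (16.7%) were called against 2.46% of all genes, again all higher (1.78% of all genes). In Tet3-/- 3 (7.14%) were called against 3.53% of all genes, and all were lower (1.02% of all genes).

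Plagl1 and Peg12 rose in both Tet3+/+ and Tet3m/m. Plagl1 went from 6872 and 6963 to 10959 and 10227 in Tet3+/+ (0.61 ± 0.05) and from 1720 and 1700 to 3189 and 3432 in Tet3m/m (0.95 ± 0.05), with no overlap in either. Peg12 went from 524 and 482 to 902 and 800 (0.76 ± 0.10) and from 384 and 375 to 653 and 619 (0.74 ± 0.10). Ascl2 rose in Tet3+/+, from 148 and 200.6 to 361 and 289 (0.90 ± 0.19). In Tet3+/+ the Plagl1 and Ascl2 calls were lost without replicate 1 of the Dnmt1 samples, and that of Ascl2 also without column a of the empty-vector samples.

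In Tet3m/m the genes that rose with Dnmt1, besides Plagl1 and Peg12, were Dcn, Usp29, Igf2, Peg3 and Rtl1. Dcn rose from 46.6 and 46.9 to 204 and 184 (2.03 ± 0.15), still below the 506 and 442 of Tet3+/+ with empty vector. Usp29 rose from 311 and 345 to 605 and 637 (0.92 ± 0.08), Igf2 from 3099 and 3110 to 4789 and 4726 (0.62 ± 0.05) and Peg3 from 22493 and 23016 to 32661 and 36301 (0.60 ± 0.05). Rtl1, a retrotransposon-derived gene that overlaps antisense transcripts, rose from 67.6 and 56.0 to 107 and 129 (0.92 ± 0.27). The Rtl1 call was lost when any 1 of its 4 samples was left out, and the Peg3 call without replicate 1 of empty-vector Tet3m/m or replicate 2 of Dnmt1 Tet3m/m. The other genes called lower in empty-vector Tet3m/m were not called with Dnmt1. They were Dlk1 (0.30), H19 (0.15), Cdkn1c (0.10), Zim1, Phlda2, Igf2r, Airn, Gnas, Impact and Ascl2. The mean of Ascl2 went down, from 107 to 85.3. Of the 7 genes that rose, 5 (Dcn, Usp29, Igf2, Peg3 and Plagl1) had been called lower against Tet3+/+ with empty vector, as were 10.9% of all genes tested. That comparison uses the same empty-vector samples, so a chance deviation of those samples would enter both. The like share among all genes that rose with Dnmt1 was not determined, so no result about these members is drawn from it.

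In Tet3-/- Dlk1 fell from 22849 and 23034 to 13452 and 13159 (-0.79 ± 0.06, adjusted p = 1.26e-08 in limma), still above Tet3+/+. Dcn fell from 380 and 417 to 255 and 236 (-0.70 ± 0.15), and Ano1 from 154 and 209 to 151 and 92.8 (-0.60 ± 0.17), where the groups did not overlap but were adjacent. Ano1 lost this call in 7 of 23 alternatives, and Dcn lost it without replicate 2 of the empty-vector samples.

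The effect of Dnmt1 in Tet3m/m differed from that in Tet3+/+ for 3 of the 42 genes (7.14%, against 0.604% of all genes): Dcn, Usp29 and Ascl2. In Tet3-/- it differed from Tet3+/+ for 5 (11.9%, against 3.99% of all genes), and all 5 were lower (1.33% of all genes): Dlk1, Peg12, Plagl1, Igf2 and Phlda2. Igf2 had 20323 and 19207 with Dnmt1 in Tet3+/+ against 15086 and 14913 with empty vector, and in Tet3-/- it had 26614 and 23860 against 29810 and 31948, so it moved in opposite directions although both changes were under 1.5-fold (0.40 ± 0.05 and -0.29 ± 0.05).

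**Figure D5:**
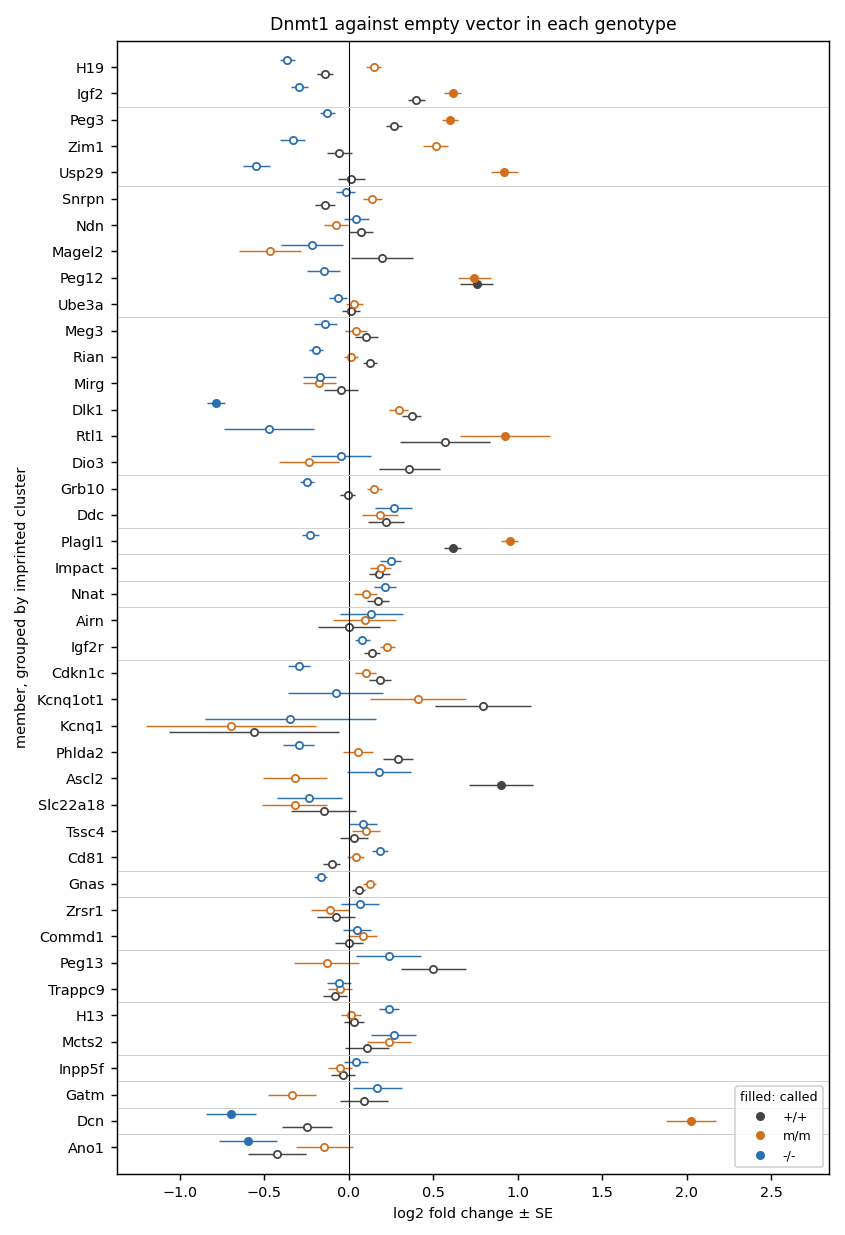
Log2 fold change ± SE of each of the 42 genes with Dnmt1 against empty vector in Tet3+/+ (dark), Tet3m/m (orange) and Tet3-/- (blue), n = 2 per group, grouped by cluster. Filled points passed the test: 3 higher in Tet3+/+, 7 higher in Tet3m/m with Dcn at 2.03, and 3 lower in Tet3-/- with Dlk1 at -0.79.

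With Tet3-CD each group was 1 library, so ratios of value + 1 are given with no test. Tet3 RNA went from 4755 to 5441 in Tet3+/+, from 1850 to 5232 in Tet3m/m and from 2070 to 2759 in Tet3-/-. Past 1.5-fold were 1 of the 42 in Tet3+/+ against 13.4% of all genes, 3 in Tet3m/m against 10.1% and 10 in Tet3-/- against 21.5%. The Tet3+/+ gene was Kcnq1 at 2.14 and 9.88, which is within a few reads. In Tet3m/m Dcn went from 93.1 to 160, Slc22a18, a transporter gene of the Kcnq1 cluster, from 32.6 to 63.9, and Rtl1 from 93.1 to 45.1. Grb10, H13, Mcts2, H19 and Igf2 stayed close to their empty-vector levels there, at 1032, 1807, 531, 97116 and 6396 against 1049, 1973, 539, 98391 and 7009.

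In Tet3-/- 4 of the 10 went up with Tet3-CD and 6 went down. Up were Nnat (1654 to 3210), Ddc (449 to 842), Gatm, the first enzyme of creatine synthesis (140 to 228), and Ndn, a MAGE gene of neurons (1345 to 2026). Down were Phlda2 (5236 to 2366), Slc22a18 (646 to 239) and Ascl2 (425 to 235), all of the Kcnq1 cluster, with Kcnq1 (30.1 to 9.45), Dio3 (614 to 357) and Ano1 (306 to 101). In Tet3+/+ with empty vector Phlda2, Slc22a18 and Ascl2 lay at 517, 44.9 and 79.1. Kcnq1 lay at 2.14 and Dio3 at 89.7 there, so these genes too had been higher in empty-vector Tet3-/-. Ano1 had been lower in Tet3-/-, against 805 in Tet3+/+. Both comparisons use the same single empty-vector Tet3-/- library, so a chance deviation of that library would enter both. The summed trophoblast markers were 21311 in Tet3-/- with empty vector, 18979 with Tet3-CD and 3658 in Tet3+/+ with empty vector, and endoderm markers were 244101, 155064 and 885496. Their part in these ratios was not tested.

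Between genotypes with empty vector in this experiment, 21 of the 42 were past 1.5-fold in Tet3m/m against Tet3+/+ (36.3% of all genes), 7 higher (20.2% of all genes) and 14 lower (16.1% of all genes). In Tet3-/- there were 13 (27.1% of all genes), 7 higher (15.4% of all genes) and 6 lower (11.7% of all genes). Igf2 and H19 moved apart in both, with Igf2 at 7009 in Tet3m/m and 47139 in Tet3-/- against 17550 in Tet3+/+, and H19 at 98391 and 16922 against 30468. The log2 ratio of Igf2 to H19 was -3.02 in Tet3m/m and 2.27 in Tet3-/-, and the latter had the sign seen in all Tet3-/- samples of the other experiments.

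Further lists were read beside these genes, chosen with earlier results of these data known. Of 18 factors that write, keep or erase imprints, 2 were called in day 3 Tet3m/m, against 10.2% of all genes (Tet3 at -1.05 ± 0.13 and Dnmt3l, a cofactor of de novo methylation, at 1.30 ± 0.17) and 1, Tet3, in Tet3-/-, against 0.642%. In the Dnmt1 experiment with empty vector 5 were called in Tet3m/m (21.2% of all genes), where Zfp57 (1.42 ± 0.05), Tet2 and Tet1 were higher and Tet3 and Dppa3 lower, and 4 were called in Tet3-/- (24.9% of all genes), all lower (Dnmt3b, Dppa3, Tet1 and Dnmt3l at -1.88 ± 0.08). Of 38 other imprinted genes outside chromosome 6, 29 were tested on day 3 and 30 in the Dnmt1 experiment. On day 3, 6 were called in Tet3m/m (10.2% of all genes), 3 in each direction, and 1 in Tet3-/- (0.642% of all genes). With empty vector in the Dnmt1 experiment 11 were called in Tet3m/m (5 higher, 6 lower, against 21.2% of all genes) and 12 in Tet3-/- (8 higher, 4 lower, against 24.9%). Among them Igf2os, transcribed antisense to Igf2, had -1.22 ± 0.26 on day 3 and -1.39 ± 0.08 in the Dnmt1 experiment in Tet3m/m, the direction of Igf2 itself, with which it may share reads.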

How the data were processed

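RNA-seq was analysed from 26 samples in 3 tables. The authors trimmed reads with Trim Galore 0.6.7, aligned them with STAR 2.7.9a (mm39 in the methods, mm10 in the labels), counted them with featureCounts and deposited normalized counts, a signal of reads divided by DESeq2 size factors. The strand setting and annotation release were not given in the sources used here. Whole reads were recovered for 100% of values, within 0.01 for lower counts and within a margin that widened in proportion for high ones. The check therefore says little for the highest values. Depth was taken from the recovered reads. Genes with a mean of at least 10 were tested in limma 3.58.1 (R 4.3.3) with a trended variance on log2(value + 1), all groups of an experiment in 1 fit, and p-values were adjusted by Benjamini-Hochberg over 17915 (day 3) or 18055 (Dnmt1 experiment) genes. A gene was called at adjusted p under 0.05 and above 1.5-fold. The fit was tested on simulated data. Alternatives were edgeR 4.0.16 and DESeq2 1.42.0 on the recovered reads, other pseudocounts, filters and scalings, a replicate block and leaving out samples. The members and lists were chosen with earlier results of these data known. Any member could be named, with full values for members called in at least 1 comparison and for genes of the same cluster; genes apart in 1 clone were chosen after their values were seen. Other genes were named only from lists of imprint factors and of further imprinted genes. Other assays of the series and the authors' own comparisons were not used.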

Additional observations from a re-analysis of the deposited data

Results flagged for a closer look

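The effect of Dnmt1 differed between genotypes, by the interaction term in limma, for 8 gene and genotype pairs. Against Tet3+/+, the log2 effect in Tet3m/m was higher by 2.28 ± 0.21 for Dcn (adjusted p = 3.65e-06) and by 0.91 ± 0.11 for Usp29, and different by -1.22 ± 0.27 for Ascl2. The effect in Tet3-/- differed from that in Tet3+/+ by -1.16 ± 0.08 for Dlk1 (adjusted p = 2.9e-08), -0.91 ± 0.14 for Peg12, -0.84 ± 0.07 for Plagl1, -0.69 ± 0.07 for Igf2 and -0.59 ± 0.13 for Phlda2. All rest on 2 samples per group. Phlda2 lost its call in 8 of 21 alternatives (edgeR, DESeq2, TMM factors and chromosome centring among them) and Ascl2 in 6 of 21, each time with a sample left out, while the other 6 kept theirs in every alternative. Groups of 4 or more samples, which a test for a single outlying sample would need, did not occur.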

How the results depend on the processing

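Of the 92 calls of a member in a comparison, 70 were kept in every alternative, 22 were lost in at least 1 and 0 turned direction. The comparison of Tet3-/- with Tet3+/+ on day 3, with 1 call (5 genes at an unadjusted p under 0.05 and past 1.5-fold in limma), had 0 calls with a pseudocount of 0.1, a mean of at least 50, edgeR, TMM factors or the replicate block, and 3 with DESeq2 or with only the groups compared. Leaving out 1 sample gave 0 to 3, with 3 without Tet3m/m replicate 3, 2 without Tet3m/m replicate 1 and 0 without any other sample. Over all genes this comparison called 115, but 64 with a pseudocount of 0.1, 223 with 5, 58 with a mean of at least 50, 67 with TMM factors, 267 when centred on the chromosome, 664 with only the groups compared, 916 with DESeq2 and 0 to 706 with a sample left out. Tet3-/- against Tet3m/m on day 3 called 1744 genes and 1154 with only the groups compared. Dnmt1 in Tet3-/- had 3 member calls, 1 to 4 with a sample left out (1 without empty-vector Tet3-/- replicate 2), with 638 genes in all and 366 to 1025 without a sample. Dnmt1 in Tet3+/+ had 3, 1 to 4 with a sample left out (1 without Dnmt1 Tet3+/+ replicate 1), with 212 genes in all, 366 with only the groups compared and 76 to 294 without 1 sample. The Tet3-CD ratio in Tet3+/+ past 1.5-fold went from 1 member to 0 with a mean of at least 50, which removes Kcnq1, and from 2344 genes to 594. The causes were not tested except where fewer genes remained.

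Samples of the same replicate number did not deviate together (day 3 r of -0.098 to 0.082, and in the Dnmt1 experiment -0.053 to 0.029), so the numbers share only a number. With the replicate block day 3 gave 8, 0 and 9 member calls for Tet3m/m and Tet3-/- against Tet3+/+ and for Tet3-/- against Tet3m/m, where Ascl2 lost its call and Peg13 gained one. In the Dnmt1 experiment the block among the 10 numbered samples gave 21, 7 and 3 for Tet3-/- against Tet3m/m and for Dnmt1 in Tet3m/m and Tet3-/-, the same counts as those samples gave without it, an alternative chosen after seeing the data. The Tet3+/+ empty-vector columns carry no number. Depth limits Kcnq1, with 2.14 to 82.3 normalized counts.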
